A study of Drosophila melanogaster with 4 samples.

Results

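A set of 578 strong CTCF sites, found again in each of the libraries that made the list, was described by spacing, width, the weaker regions between sites and replicate scores. The sites are regions of the pooled list, which the authors made from both ChIP libraries together. They were chosen by a score of 2 or more in that list and by an overlap of at least 1 bp with an enriched region of each replicate list. They were 578 of the 3888 enriched regions of the pooled list, or 14.9%. Each region carries a score given by the authors. Its formula is not stated, so it serves here only to rank and filter regions and to set the replicate lists side by side. Since the pooled score and the overlaps chose the sites, scores, widths and overlaps are given as a description with no test.

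CTCF is a DNA-binding protein with many zinc fingers that marks chromatin insulators, elements that keep an enhancer from acting on the wrong promoter. In Drosophila it works beside other insulator proteins, such as its partner CP190, and it is best known for the boundaries that separate the regulatory domains of homeotic genes.

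The material was whole wild-type Drosophila melanogaster embryos of the Oregon-R strain at 14 to 16 h of development, collected from population cages, in which all cell types are mixed. Chromatin was immunoprecipitated with an antibody to CTCF and sequenced (ChIP-seq) in 2 libraries, replicates 1 and 2, each with an input library of sheared chromatin sequenced without immunoprecipitation. All samples share genotype and stage, so there is no contrast between conditions. Replicate 1 gave 2408 enriched regions and replicate 2 gave 2080. The input libraries are not analysed here on their own, read depth is unknown, and the labels do not say whether the replicates came from separate embryo collections. Positions are in FlyBase release 5, and no genome or annotation of that release was used here, so sites are given by position without gene or sequence.

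The strong sites were spread over all large chromosome arms. In whole embryos, binding in fewer cells and weaker binding in each cell cannot be told apart in a score. Arm 3L held 135, 3R held 128, X held 120, 2L held 102 and 2R held 86, or 571 on the 5 large arms. The other 7 were 5 sites on the small chromosome 4 and 2 on U, the set of unplaced scaffolds. The strong sites covered 1.70 Mb of the 7.69 Mb in the pooled list, or 22.1% of the enriched bases. At the other end of the list were 3268 regions with a score under 2, called weaker regions here, and 42 regions scored 2 or more but were missing from a replicate list.

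Strong sites were wide, and none was narrower than 2243 bp. Their widths ran from 2243 to 8139 bp with a median of 2677 bp, and the central 50% lay between 2495 and 3087 bp. Weaker regions had a median of 1811 bp, with a range of 1001 to 8233 bp, and 637 of them (19.5%) were at least as wide as the narrowest strong site. Among weaker regions that also overlapped both replicate lists, the median was 2219 bp. Width increased with score, at the median and at the narrow end. The narrowest 10% of sites ended at 2355 bp for scores from 2 to 3, at 2465 bp for scores from 3 to 4 and at 2541 bp for scores of 4 or more, while the median rose from 2533 through 2703 to 2849 bp. Across the 578 sites Spearman's rho between score and width was 0.329, and across the weaker regions it was 0.459. Both quantities come from the same enrichment, and regions are not independent replicates.

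A group of 47 strong sites was wider than 4 kb. The widest was 2R:11702414-11710552, with 8139 bp and a score of 3.65, and it overlapped 2 regions of each replicate list. Next were 2L:17957358-17965010, with 7653 bp and a score of 2.10, and 3R:793532-800180, with 6649 bp and a score of 4.03. The region on 2L was a single region of 7673 bp in replicate 2 and 2 regions in replicate 1. Over all 578 sites, 9 overlapped more than 1 region of replicate 1 and 11 more than 1 region of replicate 2. The narrowest sites were U:9710428-9712670 with 2243 bp, 3R:3464120-3466408 with 2289 bp and 2R:6327872-6330168 with 2297 bp, with scores of 2.16, 2.13 and 2.02.

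**Figure D1:**
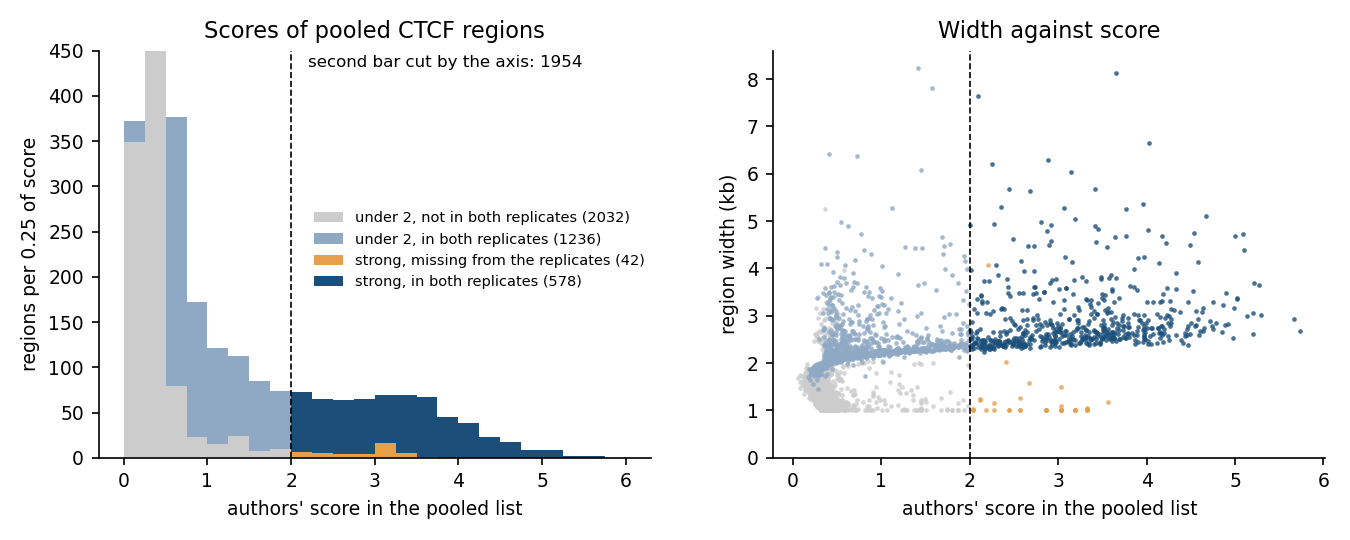
Left, number of pooled CTCF regions per 0.25 of score, stacked by score class and by overlap with both replicate lists (the second bar runs past the axis, to 1954 regions). Right, region width in kb against score for the same regions; the dashed line marks a score of 2. The 578 strong sites follow a lower edge above 2243 bp, and most of the 42 strong regions missing from the replicates lie near 1 kb.

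The threshold of 2 cut through a continuous range of scores. Regions in steps of 0.5 of score numbered 234 from 1 to 1.5, 159 from 1.5 to 2, 138 from 2 to 2.5, 129 from 2.5 to 3, 140 from 3 to 3.5 and 112 from 3.5 to 4, so no gap in score separated strong sites from the rest. Those in both replicate lists were 141, 126, 121, 119 and 111 in the steps from 1.5 upward. Over the whole pooled list 46.7% of regions overlapped both replicate lists, and among regions scoring under 2 it was 37.8%. The overlap with both lists was 19.5% (453 of 2326) below a score of 0.5 and 81.4% (447 of 549) from 0.5 to 1. All 101 regions with a score of 4 or more overlapped both lists. The lowest-scoring strong sites were 3L:10909422-10911776, 3L:11112768-11117686, X:3612768-3615470, 2L:11515840-11518498 and X:19413820-19417786, with scores from 2.00 to 2.01. Just outside were 2L:3529312-3531808, 3R:22257016-22259702, 2R:4694984-4697478, X:3634136-3637394 and 2L:3985620-3988258, with scores from 1.98 to 2.00. All of these just outside also overlapped both replicate lists, with replicate scores from 1.88 to 2.25.

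Scores of the strong sites in the replicate lists lay close to each other. In replicate 1 they ran from 1.85 to 6.00 with a median of 3.27, and in replicate 2 from 1.80 to 5.45 with a median of 3.24. Of the 578 sites, 570 scored 2 or more in replicate 1, 567 in replicate 2 and 559 in both. The size of the difference between replicates had a median of 0.163, and 90% of sites differed by no more than 0.426. The standard deviation of the difference was 0.257 across strong sites and 0.205 across the 1236 weaker regions found in both lists. Spearman's rho between the replicates was 0.948 and Pearson's r was 0.951 over the strong sites, which share both libraries with the pooled score that chose them.

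The direction of the difference changed with score. Among sites scoring 2 to 3, 130 of 247 (52.6%) were higher in replicate 2, and the median of replicate 2 minus replicate 1 was 0.0094. Among sites scoring 3 to 4, 90 of 230 (39.1%) were higher in replicate 2, with a median difference of -0.074. Among sites scoring 4 or more, 20 of 101 (19.8%) were higher in replicate 2, with a median difference of -0.159. Replicate 1 thus gave higher values to the strongest sites, by an amount similar to the median difference of 0.163 at a single site. Weaker regions in both lists were higher in replicate 2 in 666 of 1236 cases (53.9%). The depth and scaling behind each replicate's score are unknown, and their part in this was not tested.

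A few strong sites differed more between the replicates. The region 3L:18838602-18843172 had a pooled score of 2.92, but scored 3.78 in replicate 1 and 2.89 in replicate 2. It was a single region of 4434 bp in replicate 2, whereas in replicate 1 it overlapped 2 regions, of which the stronger was 2561 bp wide. The opposite held for 2L:12002454-12008748, which scored 2.85 in replicate 1, as a single region of 6234 bp, and 3.74 in replicate 2, where it overlapped 2 regions. The site U:6217604-6220268 scored 2.26 and 3.15 in replicates 1 and 2. The sites X:6908038-6910460 and 3R:12794262-12796996 scored 3.75 and 3.85 in replicate 1 and 2.89 and 3.08 in replicate 2. These 5 had the largest differences among the strong sites. Replicate 2 minus replicate 1 was -0.90, -0.86 and -0.77 in 3 of them and 0.89 in the other 2. In 2 of the 5 the region was split in one list and single in the other.

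**Figure D2:**
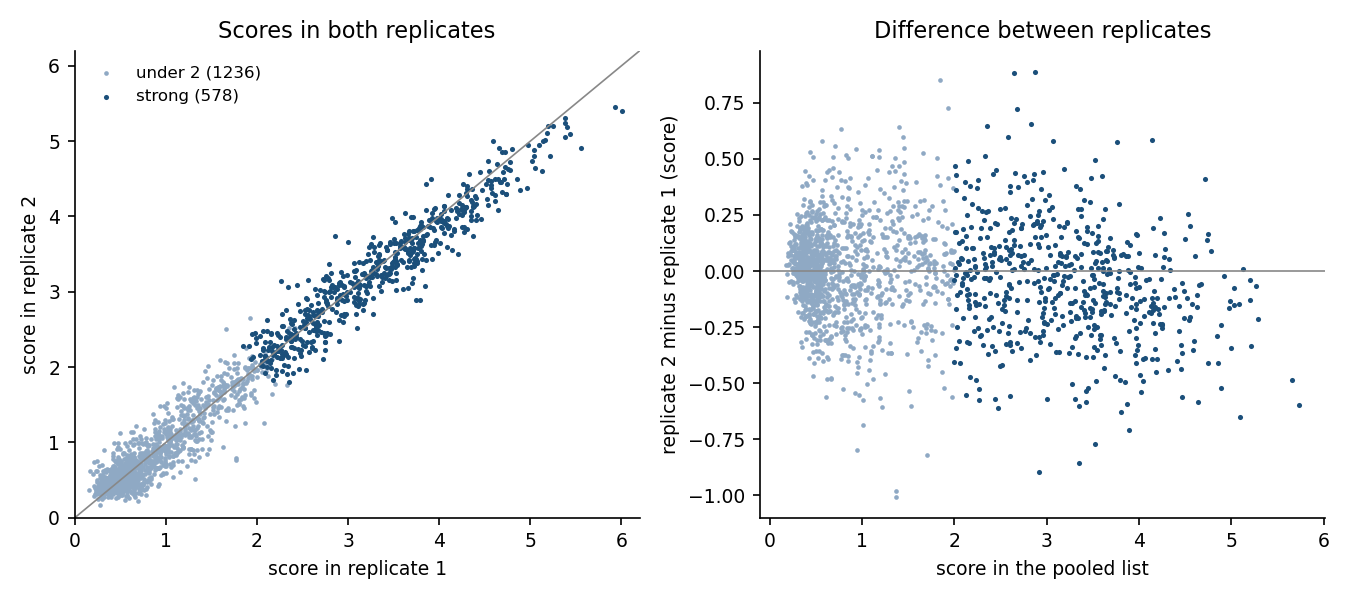
Left, score in replicate 2 against score in replicate 1 for the 578 strong sites and the 1236 weaker regions found in both lists; the line marks equal scores. Right, replicate 2 minus replicate 1 against the pooled score, in score units; the median falls from 0.0094 at scores of 2 to 3 to -0.159 at scores of 4 or more.

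Neighbouring strong sites lay at a median centre-to-centre distance of 128 kb on the large arms. The 566 intervals had a mean of 198 kb with a standard deviation of 201 kb, and the central 50% lay between 52.0 and 293 kb. The shortest was 2.46 kb and the longest 1304 kb. The replicate lists, each cut at a score of 2 in its own list, gave medians of 127.3 kb (replicate 1, 575 intervals) and 127.0 kb (replicate 2, 578 intervals) and means of 195 and 194 kb. Weaker regions of the pooled list lay closer, at a median of 23.2 kb and a mean of 37.7 ± 44.0 kb (SD over 3133 intervals), as 3138 of them shared the same arms. The spacing of strong sites depends on the threshold, and at a score of 3 or more the median was 231 kb.

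Distances were uneven, with short and long intervals on every arm. Of the 566 intervals, 25 (4.42%) were at most 10 kb, 29 lay between 10 and 20 kb, 85 between 20 and 50 kb, 89 between 50 and 100 kb, 140 between 100 and 200 kb and 151 between 200 and 500 kb, and 47 (8.30%) were over 500 kb. Those 47 long intervals made up 29.3% of all sequence between strong sites, while the 228 intervals of up to 100 kb made up 8.73%. Seen from the sequence, 37.0% of the large arms lay within 50 kb of a strong site, 58.9% within 100 kb, 82.4% within 200 kb and 96.1% within 500 kb.

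Strong sites were densest on 3L and X and sparsest on 2R. There were 5.50 per Mb on 3L, 5.35 on X, 4.59 on 3R, 4.43 on 2L and 4.07 on 2R. The same values were 5.54, 5.40, 4.66, 4.48 and 4.26 in replicate 1 and 5.46, 5.66, 4.73, 4.39 and 4.21 in replicate 2. In each list 3L and X held the most per Mb and 2R the fewest. Median spacing was 117 kb on 3L, 121 kb on X, 135.5 kb on 2L, 138 kb on 2R and 139 kb on 3R, with central ranges that overlapped widely. Strong sites were 20.1% of the pooled regions on 3L (95% Wilson interval 17.2 to 23.3) and 12.1% on 2R (9.90 to 14.7), while 2L, 3R and X lay at 16.2%, 14.8% and 14.2%. In the replicate lists the share scoring 2 or more was likewise highest on 3L, at 31.3% and 34.7%, and lowest on 2R, at 20.8% and 24.6%. The intervals treat regions as independent, cover counting error only, and no test between arms was made.

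**Figure D3:**
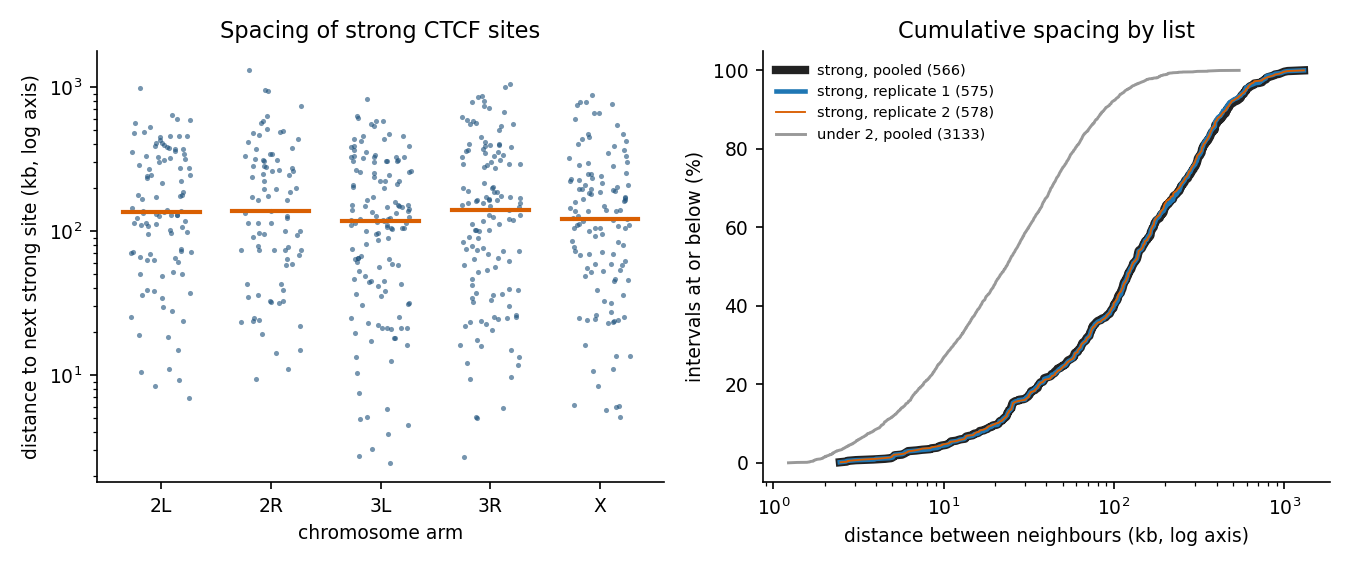
Left, distance in kb (log axis) from each strong site to the next on the same arm, with the median of each arm as a bar, from 117 kb on 3L to 139 kb on 3R. Right, cumulative share of intervals by distance for strong sites of the pooled list and of each replicate list, which lie on top of each other, and for pooled regions scoring under 2, which are closer together.

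Pairs of strong sites at short range were few. Of the 578 sites, 51 (8.82%, Wilson 6.77 to 11.4) had another strong site within 10 kb, and 235 (40.7%) within 50 kb. These shares were near those of weaker regions. Of the 3268 weaker regions, 308 (9.42%, 8.47 to 10.5) had a strong site within 10 kb, and 1252 (38.3%) within 50 kb. For strong sites the share within 10 kb was 8.66% in replicate 1 and 9.12% in replicate 2, and measured from edge to edge it was 11.9%. The 51 sites formed 24 pairs and 1 group of 3. On the large arms the 25 close intervals were 9 on 3L, 6 on 3R, 6 on X, 3 on 2L and 1 on 2R. The group of 3 lay at 3L:21945064-21954908.

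The closest neighbours were separate regions that nearly touched. The closest pair, part of that group, was 3L:21950036-21952462 and 3L:21952504-21954908, with centres 2457 bp apart and 41 bp between the regions. The left site scored 4.22 in replicate 1 and 4.04 in replicate 2, and the right site scored 4.02 and 4.04. Both were thus strong in each library. The next pair, 3R:2795172-2797772 and 3R:2797884-2800456, had centres 2698 bp apart, with replicate scores of 3.56 and 3.61 on the left and 3.18 and 2.85 on the right. The pair at 3L:6895952-6898510 and 3L:6898596-6901330 followed with 2732 bp, and had replicate scores of 4.07 and 3.90 on the left and 3.16 and 3.38 on the right. The remaining short intervals, of 3049 and 3867 bp, began at 3L:10273906-10276288 and 3L:16399706-16402818. In 4 of these 5 pairs the sites lay on 3L. None of the 5 had an additional region of either replicate list between its sites.

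Among strong sites, the score of one told little of the score of the next strong site. Across the 566 intervals Spearman's rho between the scores of the left and right site was 0.069 and Pearson's r was 0.054. The median score difference was 0.497 in the 25 intervals of at most 10 kb and 0.788 in the other 541. Both exceed the median replicate difference of 0.163. Score and the distance to the nearest strong site had a Spearman's rho of 0.074 over the 571 sites of the large arms. These are descriptions over sites that share both libraries.

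The longest intervals between neighbouring strong sites held weaker regions, only some of which overlapped both replicate lists. Longer stretches without a strong site lay at ends of 2L, 2R and 3L and are given with the windows. The longest interval between 2 strong sites ran on 2R from 13027788-13031734 to 14332360-14335168, a distance of 1304 kb, and held 44 weaker regions, of which 14 overlapped both replicate lists. The strongest region within it scored 1.71. The next was on 3R from 10215524-10218530 to 11262394-11265092, with 1047 kb and 31 weaker regions, of which 9 were in both lists. Its left border was among the strongest sites, with scores of 5.41 in replicate 1 and 5.19 in replicate 2. It was followed by 3R from 3806108-3808616 to 4804238-4807006, with 998 kb and 24 weaker regions, of which 13 were in both lists. The interval on 2L from 8484314-8486832 to 9463650-9466078, of 979 kb, held 14 weaker regions, of which 3 were in both lists. The last of the 5, on 2R from 14400498-14402994 to 15354980-15357798, spanned 955 kb with 19 weaker regions, of which 9 were in both lists. Among all weaker regions, 37.8% were in both lists. These 5 intervals held 14.3 to 33.7 weaker regions per Mb, against 27.2 per Mb over all intervals. By number of weaker regions, 2R from 8407688-8410126 to 9339880-9342320 ranked second, with 43 in 932 kb, or 46.1 per Mb.

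Weaker regions between strong sites increased in number with the length of the interval, at 26.2 to 28.8 per Mb in the pooled list above 20 kb. The median interval held 3 weaker regions, the central 50% held 1 to 8, and 105 of 566 held 10 or more. Spearman's rho between distance and number of weaker regions was 0.863 across the 566 intervals. Density was 28.4 per Mb in intervals of 20 to 50 kb (95% Poisson interval 22.4 to 35.4), 28.4 in those of 50 to 100 kb (24.4 to 32.8), 28.8 in those of 100 to 200 kb (26.5 to 31.3), 26.2 in those of 200 to 500 kb (24.8 to 27.6) and 27.5 above 500 kb (25.7 to 29.4). In intervals of 10 to 20 kb there were 13 weaker regions, or 30.6 per Mb (16.3 to 52.3). In intervals of at most 10 kb there were only 3 weaker regions, or 20.1 per Mb (4.15 to 58.8), too few to place the value. Up to 100 kb the density was 28.3 per Mb (25.1 to 31.9) and above it 27.1 (26.1 to 28.1), a ratio of 1.04. These lengths include part of the strong sites themselves, and with lengths taken from edge to edge the ratio was 1.11.

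The replicate lists had fewer weaker regions. Replicate 1 held 16.9 per Mb (14.5 to 19.7) in intervals up to 100 kb and 15.2 (14.4 to 15.9) in longer ones, and replicate 2 held 13.3 (11.2 to 15.7) and 12.5 (11.8 to 13.2). In both lists, as in the pooled list, the density was higher in the short class and the Poisson intervals overlapped. Such an overlap does not show that the densities are equal. The intervals cover counting error only and treat regions as independent.

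**Figure D4:**
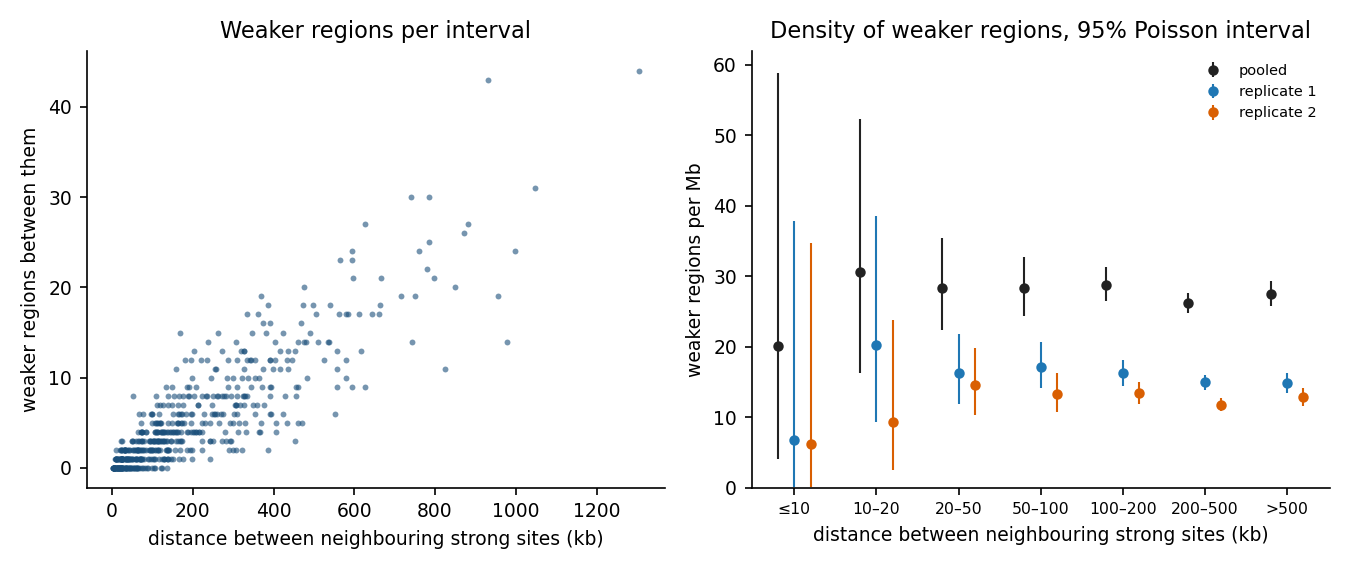
Left, number of weaker regions (score under 2) against the distance in kb between the strong sites that flank them, for the 566 intervals of the large arms. Right, weaker regions per Mb by interval length in the pooled list and in each replicate list, with 95% Poisson intervals; above 20 kb the pooled values stay between 26.2 and 28.8 per Mb.

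Intervals without any weaker region were mostly short. They numbered 93 of 566, or 16.4%, with a median length of 23.8 kb and a longest of 136 kb. Of the 25 intervals up to 10 kb, 22 were empty, of the 85 from 20 to 50 kb, 31, and of the 140 from 100 to 200 kb, 5. None of the 151 from 200 to 500 kb and none of the 47 longer ones was empty. The share of empty intervals was higher in the shorter replicate lists, at 26.1% in replicate 1 and 30.1% in replicate 2. Along the arms, the region that followed a strong site was another strong site in 93 of 569 cases (16.3%, Wilson 13.5 to 19.6), and the region that followed a weaker one was a strong site in 476 of 3120 cases (15.3%, 14.0 to 16.6). The corresponding shares were 25.9% and 24.4% in replicate 1 and 29.8% and 28.4% in replicate 2. The share was slightly higher after a strong site in all 3 lists, which share libraries, and the difference was not tested.

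Strong sites had weaker regions about as near as weaker regions had each other. The nearest weaker region lay at a median of 12.2 kb from a strong site, and 250 of 578 sites (43.3%, Wilson 39.3 to 47.3) had one within 10 kb. For weaker regions the nearest other weaker region lay at a median of 11.5 kb, and 1472 of 3268 (45.0%, 43.3 to 46.8) had one within 10 kb. In the shorter replicate lists the share of strong sites with a weaker region within 10 kb was 24.8% in replicate 1 and 21.1% in replicate 2. The corresponding shares between weaker regions were 29.0% and 25.1%.

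In the pooled list the density of weaker regions was higher at 2 to 10 kb from a strong site than farther away. Between the outermost strong sites of each arm, 126 weaker regions had their centre 2 to 5 kb from the nearest strong centre, or 38.2 per Mb (95% Poisson interval 31.8 to 45.5), and 175 lay at 5 to 10 kb, or 33.3 per Mb (28.5 to 38.6). From 10 kb outward the density was 27.8 per Mb at 10 to 20 kb, 28.8 at 20 to 50 kb, 27.0 at 50 to 100 kb, 25.6 at 100 to 200 kb and 27.3 (24.8 to 30.1) beyond 200 kb. Within 2 kb only 1 was found, where a strong site mostly occupies the sequence itself. In replicate 1 the value at 2 to 5 kb was 22.1 per Mb (17.3 to 27.7), and that at 5 to 10 kb was 15.7 (12.5 to 19.5), against 16.1 at 10 to 20 kb, 16.0 at 20 to 50 kb and 14.7 (12.8 to 16.9) beyond 200 kb. The higher value at 5 to 10 kb in the pooled list was thus not seen in replicate 1. In replicate 2 the values were 16.3 (12.3 to 21.3) at 2 to 5 kb, 14.6 (11.5 to 18.2) at 5 to 10 kb, 13.4 at 10 to 20 kb and 13.3 (11.5 to 15.3) beyond 200 kb. Weaker regions also had weaker neighbours at short range in the pooled list. Within 5 kb, 699 of 3268 weaker regions (21.4%) had another weaker region, against 120 of 578 strong sites (20.8%). No matching profile was made around weaker regions, so the higher values are not shown to be particular to strong sites. No test of these densities was made.

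**Figure D5:**
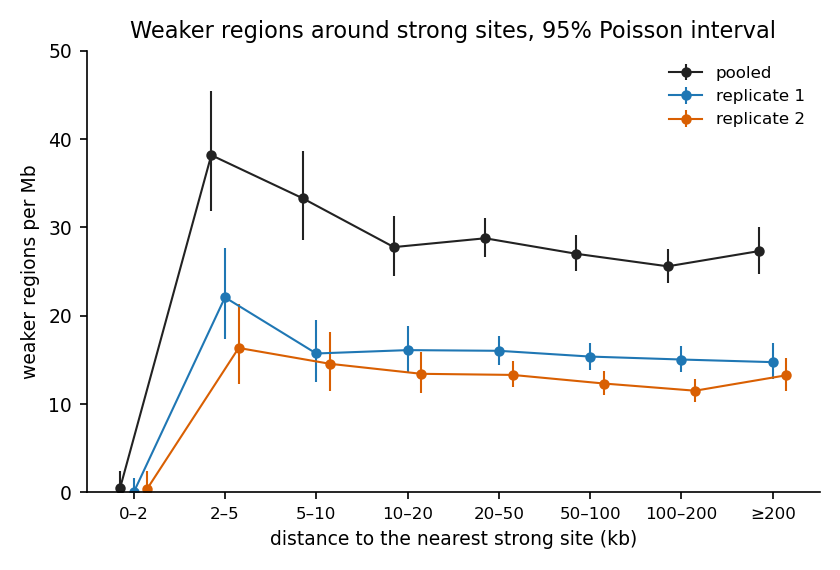
Weaker regions per Mb against the distance in kb to the nearest strong site, between the outermost strong sites of each large arm, for the pooled list and each replicate list with 95% Poisson intervals. The pooled value is 38.2 per Mb at 2 to 5 kb and lies between 25.6 and 28.8 per Mb from 10 kb outward.

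In windows of 1 Mb, strong sites ranged from 0 to 17. The median of the 117 windows was 5 sites, and the central 50% held 3 to 6. The window with most strong sites was 3R:12000001-13000000 with 17, and each replicate list also had 17 there. Their scores ran from 2.21 to 4.67 with a median of 3.77, and 37 weaker regions lay in the same window. It was followed by 3L:10000001-11000000 with 13 strong sites and 12 weaker regions, and 3L:6000001-7000000 with 12 and 19. The median of all windows was 26 weaker regions, and 3L as a whole held 21.7 per Mb, the fewest of the arms. Across the 117 windows the numbers of strong sites and weaker regions had a Spearman's rho of 0.181 and a Pearson's r of 0.204, over windows that share libraries and sequence.

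Within the leading window, 11 strong sites formed a run from 3R 12573280 to 12796996 in which no step was over 36.5 kb. It is the longest chain of strong sites with steps of at most 50 kb, a limit chosen with the values in view. Its centres spanned 221 kb, with steps from 11.8 to 36.5 kb and a median of 19.1 kb. The limit of 50 kb keeps every step short, so these steps are not set against those of all strong neighbours. Scores ran from 2.21 to 4.61 in the pooled list, from 2.26 to 4.85 in replicate 1 and from 2.23 to 4.70 in replicate 2, with 3 of the 11 under 3. The run held 7 weaker regions. The next longest were 6 sites at 3L:10217260-10315864, with a median score of 2.48 and 2 weaker regions, and 5 sites at X:5417534-5557868, with a median score of 2.59 and 6 weaker regions.

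The 5 windows without a strong site lay at arm ends. They were 2L:21000001-22000000 and 2L:22000001-23000000, 2R:1-1000000 and 2R:1000001-2000000, and 3L:23000001-24000000, the ends of these arms nearest the centromere. They held 5 to 20 weaker regions with a median of 9. The window on 3L also held 3L:23831838-23832838, which scored 3.03 but was missing from both replicate lists. The outermost strong site was 2089 kb from the right end of 2L, at 20921730-20924190, and 2039 kb from the left end of 2R, at 2036498-2040890. On 3L it was 1610.1 kb from the right end. The centromere-near ends of 3R (left) and X (right) differed, with a strong site 13.0 and 196 kb away. On the other ends of 3R and X the outermost strong sites lay 267 and 424 kb away. On the other ends of 2L, 2R and 3L they lay 73.6, 76.0 and 247 kb away. How much of the sequence near centromeres could be mapped is unknown, and its part in these gaps was not tested.

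Chromosome 4, which is small and largely heterochromatic, had 5 strong sites. They were 4:109318-111666, 4:423966-428856, 4:434482-440164, 4:444268-446668 and 4:506174-508686, with pooled scores of 2.91, 3.42, 2.44, 4.05 and 3.59. Their scores in replicate 1 were 2.81, 3.52, 3.09, 4.28 and 3.68, and in replicate 2 they were 3.06, 3.33, 2.52, 3.79 and 3.49. The first was higher in replicate 2 and the other 4 were higher in replicate 1. The sites at 434482 and 444268 were 1 of the 24 close pairs.

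Each replicate alone gave nearly the same strong sites. Replicate 1 had 589 regions with a score of 2 or more, of which 571 overlapped a strong site of the pooled list. Of its other 18, 17 overlapped a pooled region scoring under 2 and 1 overlapped no pooled region. Replicate 2 had 592 such regions, of which 567 overlapped a strong site, 24 a pooled region scoring under 2 and 1 no pooled region. Pooled and replicate lists rest on the same reads, so these overlaps are no independent evidence.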

How the data were processed

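The authors deposited 3 region lists from CTCF ChIP-seq, 1 for each ChIP library and 1 for both together, in which every region has a score. The submitters' processing notes name Bowtie 0.12.7 as the aligner. Positions are in FlyBase release 5, per the file headers. Which caller, threshold and score formula were used, and how libraries were combined, is not given in the sources used here. Read depth is unknown, so the error from sequencing depth is not estimated for any value.

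Of 3889 listed regions, 1 marked as depleted was left out. Neighbours are consecutive strong sites on one sequence, and distances are between centres. A weaker region was counted between 2 sites when its centre lay between theirs. Replicate scores are those of the highest-scoring overlapping region. Wilson and exact Poisson intervals at 95% cover counting only. No test was made, since regions are not replicates. Regions were named by rule: the extremes of distance, width, replicate difference and weaker regions, both sides of the threshold, and the densest windows. Sites and lists were chosen with earlier results of these data known, and the 50 kb runs, 5 kb steps and density ratio were added after the data were seen. Alternatives changed the threshold, the overlap, the sequences, the distance and the libraries. The code was checked on simulated data. Computations used pandas 2.3.3, SciPy 1.17.1 and NumPy 2.4.6 under Python 3.11.15, and figures were drawn by Matplotlib 3.10.9.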

Additional observations from a re-analysis of the deposited data

Results flagged for a closer look

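A signal appeared in regions that the spacing results do not use: 42 pooled regions scored 2 or more and were missing from the replicate lists, all 42 from both. They had a median width of 1006 bp, and 41 were narrower than the narrowest strong site. Only 15 were on the 5 large arms, while 20 were on U and 7 on heterochromatin sequences. Their scores took 14 distinct values, of which 3.03 occurred 12 times, whereas the 578 strong sites had 577 distinct scores. The highest-scoring were 3RHet:553406-554576 with 3.57, and X:3623102-3624110, 2R:5039468-5040522, 2R:8707088-8708092, 2RHet:1839002-1840008 and U:6491628-6492650, each with 3.32. The exception in width was 3R:8322352-8326420, with 4069 bp and a score of 2.21.

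A further 7 strong sites lay outside the large arms, 5 on chromosome 4 and 2 on U. They were left out of the 566 intervals, but count among the 578 sites in the shares within 10 and 50 kb. The sites on U were 6217604-6220268, with scores of 2.26 in replicate 1 and 3.15 in replicate 2, and 9710428-9712670, with 2.15 and 1.99.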

How the results depend on the processing

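Of 63 values under alternative settings, 32 moved by more than the spread between the values from each replicate list alone, or, for the number of sites, by more than 1.5 times. That spread is a standard deviation and can be small. For the median distance it was 0.193 kb, so a shift from 128.0 to 127.7 kb counts as moved. The values from the replicate lists are themselves among the 63. No such spread exists for the median score difference between replicates, which was 0.163 and lay between 0.155 and 0.165 under its 6 alternatives. These 6 were judged against the standard deviation of that difference across sites, 0.164. It is close to the value itself, so that none of them moved says little. The 32 values follow. At a score of 3 or more there were 331 sites, with a median distance of 231 kb, a median width of 2753 bp, 9.91% of intervals empty, 7.85% of sites with another strong site within 10 kb and 46.8% with a weaker region there. At 1.5 or more these values were 112 kb, 2619 bp, 20.0% and 10.0%. The median distance was 129.6 kb with a reciprocal overlap of 50%, 128.2 kb with no overlap required, 127.7 kb over all sequences and 125 kb from edge to edge. Edge to edge, 11.9% of sites had another strong site and 50.5% a weaker region within 10 kb. Within 5 kb these shares were 2.25% and 20.8%, and within 20 kb 18.0% and 67.5%. With a single replicate list, the median distance was 127.0 to 127.3 kb, the median width 2503 to 2554 bp, the share of empty intervals 26.1 to 30.1%, and the share of sites with a weaker region within 10 kb 21.1 to 24.8%, from lists with fewer weaker regions. The ratio of weaker-region density in intervals up to 100 kb to that in longer ones, added after the data were seen, was 1.04. It was 0.993 at a score of 1.5 or more, 1.10 at 3 or more, 1.11 edge to edge and 1.12 with replicate 1 alone. With replicate 2 alone it was 1.07, which is within the spread and not among the 32. No paired analysis was possible because no test between groups was made. Depth is unknown, so regions below the authors' threshold cannot be told from regions without CTCF.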

Other observations

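Among intervals of up to 50 kb, distances of 20 to 25 kb were more frequent than the steps on either side. In the pooled list there were 25 such intervals, against 13 from 15 to 20 kb and 13 from 25 to 30 kb. Replicate 1 had 24, against 15 and 13, and replicate 2 had 23, against 15 and 13. The lists share libraries, the step was noticed after the values were seen, and it was not tested.

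Pooled scores of strong sites did not always lie between those of the replicates. They did so at 359 of 578 sites, lay below both at 217 and above both at 2, with a median of -0.042 for the pooled score minus the mean of the replicate scores.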
